A study of Mus musculus with 12 samples.

Results

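The response to dexamethasone (Dex) was measured in *Sox7*-/- mouse embryonic stem (ES) cells that carried Gata6GR. The 3 arrays of *Sox7*-/- Gata6GR cells at day 4 with Dex were compared with the 3 arrays of *Sox7*-/- Gata6GR cells at day 4 without Dex, which are 6 of the 12 arrays of the series. The other 6 arrays held *Sox7*+/- Gata6GR cells with and without Dex at day 4, and were used to test where the response of the *Sox7*-/- cells differed. They also entered the estimate of spread, the filter on probes and the choice of the brightest probe of a gene. The study asked how far the differentiation that *Gata6* drives depends on *Sox7*. All 4 groups carried Gata6GR, a fusion of *Gata6* with the ligand-binding domain of the human glucocorticoid receptor, expressed from a piggyBac vector under the ubiquitous CAG promoter, and were grown in serum medium with leukaemia inhibitory factor (LIF). In the *Sox7*-/- cells both alleles had lost the whole coding region of *Sox7*, and the null cells were selected from 1 heterozygous clone, so clone and genotype cannot be told apart. Dex also binds the glucocorticoid receptor of the cells themselves, and no array held Dex-treated cells without Gata6GR, so the actions of Dex through Gata6GR and through that receptor cannot be told apart. Whether the 3 arrays of a group came from separate cultures is not stated, and p-values then measure only the spread between these arrays, which may be technical.

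Primitive endoderm is the layer of the early embryo that arises beside the pluripotent epiblast and forms the visceral and parietal endoderm of the yolk sacs. *Gata6* acts at the top of its transcription factor network, upstream of *Gata4*, *Sox17* and *Sox7*, and fibroblast growth factor (Fgf) signalling favours this fate over the epiblast. Parietal endoderm lays down a thick basement membrane, whereas visceral endoderm takes up and secretes nutrients and serum proteins. Forced *Gata6* activity turns ES cells into cells that resemble extraembryonic endoderm (XEN) cell lines, and such cells are called XEN-like.

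Signals are log2 values scaled by each array's 75th percentile, so that a value of 0 is the level of that percentile and 1 unit is a 2-fold difference. Levels of different genes were read by different probes and are not compared. A summed signal adds the linear signals of the measured genes of a list. It follows the brightest probes most and does not rank genes by amount of RNA. The share of spots well above background ranged from 43.2% to 49.8% over the 6 *Sox7*-/- arrays, and no spot was saturated. All 3 arrays without Dex and replicate 1 with Dex lay on slide 1, and replicates 2 and 3 with Dex lay on slide 2 with all *Sox7*+/- arrays. Of 25940 probes tested, 24536 were well above background on all 3 arrays of a *Sox7*-/- group. A listed gene is called measured if its brightest tested probe was well above background on at least 1 *Sox7*-/- array. Of 557 distinct listed genes 554 were on the array, so nearly all genes not measured had probes that were too dim to pass. Where a gene was not well above background on any array of a group, its change is given as a bound. Each such array is taken at the signal of the gene or at its lowest signal well above background, whichever is higher. The words at least hold only under this processing. *Cck*, for example, has a bound of 7.60 on the log2 scale, but a fitted change of 6.32 with normexp background correction. Some fitted changes rest on groups in which 1 or 2 of 3 arrays were well above background, without Dex for *Apoc2*, *Cdx2*, *Gata2*, *Myl3*, *Nkx2-5*, *Nppb*, *Rspo3*, *Tek* and *Thbd* and with Dex for *Cdh5*, *Col18a1*, *Lef1*, *Lefty1*, *Lefty2*, *Otx2*, *Pdk4*, *Sfrp1* and *Wnt6*, and the size of these changes is uncertain. Genes were named by size of change within each list, and further members that complete a family or complex were chosen after their values were seen.

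With Dex, 3780 probes rose and 3695 fell by more than 2-fold at an adjusted p under 0.05 (limma), which is 14.6% and 14.2% of the probes tested and 28.8% together. At least 4-fold changes were called for 1224 rising and 1878 falling probes, and at least 16-fold changes for 180 and 505. Of the rising probes 939 were not well above background on any array without Dex, and of the falling probes 1238 were not well above background on any array with Dex. Among the called probes 106 were not well above background on any *Sox7*-/- array, and were tested because of a *Sox7*+/- group. The median change of all probes was 0.07 on the log2 scale. The 3 arrays of each group did not overlap for 73.6% of all probes, so a lack of overlap is common here. Within slide 1 alone, 3 arrays without Dex stand against 1 with Dex, and 3606 probes were higher and 3625 lower if that lone array is assumed to vary like the 3 untreated ones, which give the whole estimate of spread.

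**Figure D1:**
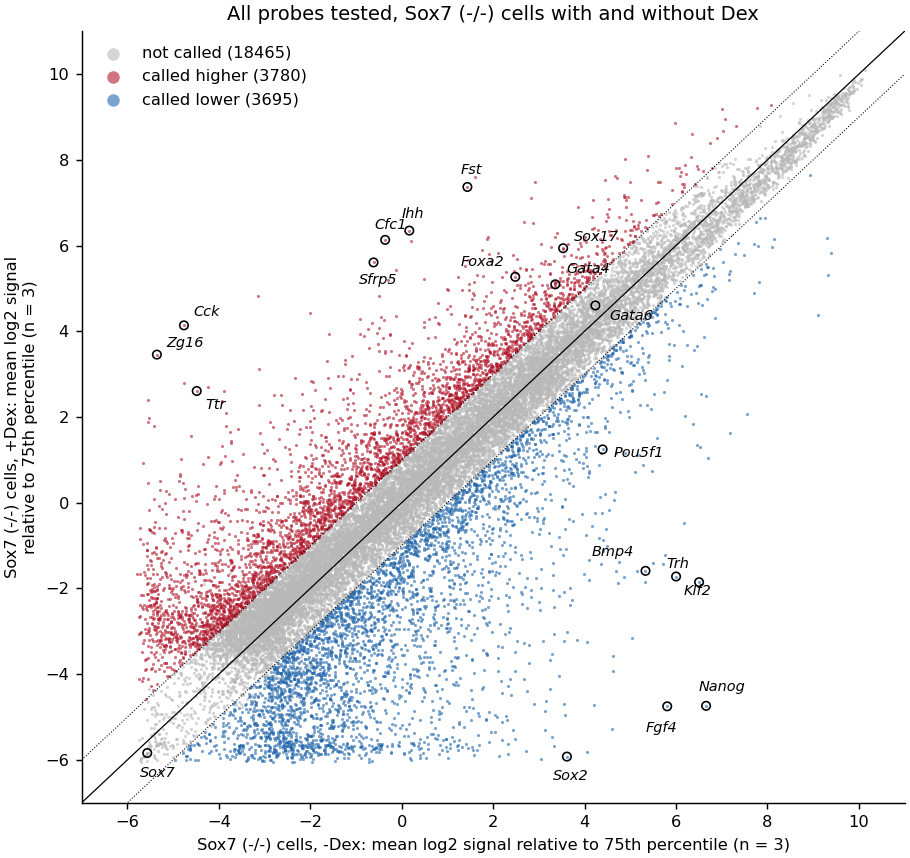
Mean log2 signal of each of 25940 probes without Dex (x axis) and with Dex (y axis) in *Sox7*-/- cells, 3 arrays each, scaled by each array's 75th percentile. Red points (3780) were called higher and blue points (3695) lower, the solid line marks equal signal and the dotted lines a 2-fold difference. *Cfc1* and *Fst* stand far above the line and *Nanog*, *Fgf4* and *Sox2* far below it, whereas *Gata6* lies inside the 2-fold band.

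The deleted gene was checked first. The *Sox7* probe (chromosome 14, 64569419-64569478, mm9) was not well above background on any of the 6 *Sox7*-/- arrays, with signals of -5.78, -5.64 and -5.28 without Dex and -5.41, -6.03 and -6.08 with Dex. It was well above background on all 6 *Sox7*+/- arrays, with means of 1.16 without Dex and 2.46 with Dex. The probe reads the transcript from position 3115, which lies outside the deleted coding region, and so checks only that part of the transcript.

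Most transcription factors of primitive endoderm rose with Dex, although *Gata6* itself did not pass the test. Of 10 measured factors 7 rose and 1 fell, against 15.2% and 14.5% of all 17623 genes, and the median change of 2.01 compares with 0.08 over all genes. *Gata4* (chromosome 14, 63817858-63817917), a zinc finger factor that acts with *Gata6*, read 3.37, 3.43 and 3.28 without Dex and 5.13, 5.10 and 5.05 with Dex. All 3 treated arrays lay above all untreated ones, and *Gata4* rose by 1.74 (SE 0.10, adjusted p = 9.7e-08). *Sox17*, an HMG-box factor of the same subfamily as *Sox7*, read 3.55, 3.60 and 3.45 without Dex and 5.83, 6.10 and 5.88 with Dex, a rise of 2.41 (SE 0.11, adjusted p = 2.3e-08) (2.46 by a second probe). The forkhead factor *Foxa2* went from 2.45, 2.65 and 2.35 to 5.29, 5.30 and 5.23 and rose by 2.79 (SE 0.12, adjusted p = 1.6e-08). Every one of these genes was already well above background on the 3 arrays without Dex.

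*Gata6* read 4.33, 4.20 and 4.18 without Dex and 4.57, 4.65 and 4.59 with Dex. The groups did not overlap, yet the change of 0.37 (SE 0.19, adjusted p = 0.11) stayed below the threshold, and whether this probe also reads the transgene is not given in the sources used here. *Hnf4a*, a nuclear receptor that drives hepatic and visceral endoderm genes, read 1.78, 1.62 and 1.52 without Dex and 4.54, 4.61 and 4.40 with Dex. It rose by 2.88 (SE 0.10, adjusted p = 2.6e-09). *Nr2f2*, an orphan nuclear receptor, was not well above background on any array without Dex and rose at least 2.72-fold. The forkhead factor *Foxa1* went the other way, from -1.63, -1.94 and -1.84 to values not well above background on any treated array, and fell at least 3.83-fold (adjusted p = 9.7e-05).

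The promoters of 4 genes that rose are shown because they hold a GATA-type motif, the letters that GATA factors are known to bind, and the genes were picked because they rose and hold these letters. Each line gives 250 bases upstream of a start site (RefSeq, GRCm38.p6), 5′ to 3′ on the strand of the gene, with AGATAA or TGATAA, or their reverse complement, in capitals.
*Hnf4a*, chr2:163506607-163506856, plus strand: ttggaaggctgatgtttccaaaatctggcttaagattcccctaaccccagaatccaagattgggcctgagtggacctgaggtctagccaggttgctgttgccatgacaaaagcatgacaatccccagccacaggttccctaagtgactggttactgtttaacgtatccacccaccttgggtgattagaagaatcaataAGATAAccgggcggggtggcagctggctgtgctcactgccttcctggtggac
*Cfc1*, chr1:34535398-34535647, plus strand: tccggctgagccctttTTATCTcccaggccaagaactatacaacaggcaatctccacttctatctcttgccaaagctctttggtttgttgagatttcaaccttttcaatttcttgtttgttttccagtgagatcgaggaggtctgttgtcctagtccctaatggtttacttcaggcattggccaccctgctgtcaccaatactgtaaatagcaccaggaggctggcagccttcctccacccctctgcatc
*Sfrp5*, chr19:42202253-42202502, minus strand: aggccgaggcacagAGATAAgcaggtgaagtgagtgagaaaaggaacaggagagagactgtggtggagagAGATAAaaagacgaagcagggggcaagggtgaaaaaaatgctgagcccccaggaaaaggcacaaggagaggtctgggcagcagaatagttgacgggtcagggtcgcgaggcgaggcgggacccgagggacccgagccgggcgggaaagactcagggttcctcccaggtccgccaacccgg
*Dab2*, chr15:6299539-6299788, plus strand: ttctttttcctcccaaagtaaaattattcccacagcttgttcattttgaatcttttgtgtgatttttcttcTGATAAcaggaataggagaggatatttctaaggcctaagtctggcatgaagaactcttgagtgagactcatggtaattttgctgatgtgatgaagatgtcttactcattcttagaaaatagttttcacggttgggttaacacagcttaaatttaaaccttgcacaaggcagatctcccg
The motif begins 52 bases before the start of *Hnf4a*, 234 before *Cfc1*, 179 before *Dab2*, and 236 and 180 before *Sfrp5*. Either motif, on either strand, was found in 11% of 2435 promoters of genes that rose, 10.1% of 2103 promoters of genes that fell and 9.28% of 9371 promoters of genes tested and not called, against 16.6% of all 32851 promoters in the table. Promoters of 1 gene can overlap, and a match is a description of letters, not a binding site.

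Genes of collagen processing and of the basement membrane gained with Dex. Of 12 collagen-folding and crosslinking enzymes 10 rose and none fell, with a median change of 2.08. *Loxl2*, a lysyl oxidase that crosslinks collagen IV, read 1.79, 1.14 and 1.25 without Dex and 5.96, 5.34 and 5.29 with Dex, and rose 17.6-fold (log2 change 4.14, SE 0.25, adjusted p = 1.8e-07). *P3h2*, a prolyl hydroxylase that acts on basement membrane collagens, rose by 3.16 (SE 0.19). *Serpinh1*, the collagen chaperone of the endoplasmic reticulum, rose by 2.70 (SE 0.06, adjusted p = 1.9e-10).

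Of 14 basement membrane components 7 rose and 2 fell. The chains of collagen IV rose together, *Col4a1* from 4.84, 4.90 and 4.88 to 8.05, 7.97 and 8.04 (log2 change 3.14, SE 0.11, adjusted p = 3.5e-09) and *Col4a2* by 2.96 (SE 0.14). The 3 chains of the main embryonic laminin also rose, *Lama1* by 1.42, *Lamb1* by 2.19 and *Lamc1* by 2.26. *Nid1*, which links laminin to collagen IV, rose by 3.09, and its other probes by 3.48 and 3.73. Other matrix genes did not follow. *Col18a1*, the source of endostatin, read 4.67, 4.61 and 4.61 without Dex and -3.30, -4.11 and -3.32 with Dex, where 1 of 3 arrays was well above background. It fell by 8.21 on the log2 scale, and its second probe fell by 7.30. *Fn1*, fibronectin, read 6.13, 6.0 and 6.48 without Dex and 2.06, 1.91 and 2.06 with Dex and fell by 4.19 (SE 0.22, adjusted p = 7.2e-08). *Sparc*, a collagen-binding matrix protein, changed by 0.40 by its brightest probe and by 2.32 by another, so its probes disagree in size.

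Markers of parietal endoderm rose in 13 of 17 genes and fell in none, with a median change of 2.19. *Fst*, follistatin, which binds and blocks activin, read 1.48, 1.45 and 1.38 without Dex and 7.38, 7.34 and 7.38 with Dex and rose 61.0-fold (log2 change 5.93, SE 0.10, adjusted p = 3.3e-11). *Thbd*, thrombomodulin, read -3.28, -3.10 and -3.01 without Dex, where 2 of 3 arrays were well above background, and 2.41, 2.14 and 2.31 with Dex, a rise of 5.42 (SE 0.12). The treated arrays of both genes lay far above all untreated ones. *Pth1r*, the receptor of parathyroid hormone-related protein, rose by 4.28 (SE 0.08), *Gpx3*, a secreted glutathione peroxidase, by 4.03, and *Plat*, tissue plasminogen activator, by 3.92. The keratins *Krt8*, *Krt18* and *Krt19* rose by 1.71, 2.30 and 2.53. *Vim*, vimentin, another marker of parietal cells, read 4.01, 3.93 and 3.97 without Dex and 3.30, 3.58 and 3.43 with Dex, and its change of -0.53 (SE 0.26, adjusted p = 0.1) did not pass the test.

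Some genes of visceral endoderm rose beside the parietal ones. Of 10 measured serum protein and apolipoprotein genes 6 rose and 1 fell, with a median change of 2.89. The log2 summed signal of these genes did not rise, at 7.93 to 8.13 without Dex and 7.73 to 8.03 with Dex. This sum follows the brightest probes most and can hide rises of dimmer genes, such as *Ttr* and *Mttp* below. A further 7 listed genes had probes on the array that were too dim to count as measured in *Sox7*-/- cells. Among them were the hallmark serum proteins *Afp* and *Alb* and the apolipoproteins *Apoa1* and *Apob*. *Ttr*, transthyretin, the carrier of thyroid hormone and retinol-binding protein, read -3.84, -4.20 and -5.41 without Dex, not well above background on any array, and 2.69, 2.65 and 2.48 with Dex. It rose at least 67.4-fold (adjusted p = 6e-08). *Mttp*, which loads lipid onto apolipoprotein B, read -1.18, -1.08 and -1.43 without Dex and 3.20, 3.34 and 3.17 with Dex, a rise of 4.47 (SE 0.10, adjusted p = 1.5e-10). *Apom*, a lipoprotein of the lipocalin family, rose by 3.70, *Rbp4*, the plasma retinol carrier, by 3.34 (SE 0.63) and *Apoc2*, the cofactor of lipoprotein lipase, by 3.13. *Trf*, transferrin, read 1.02, 1.15 and 0.98 without Dex and -2.33, -1.97 and -2.10 with Dex and fell by 3.19 (SE 0.14, adjusted p = 1.5e-08). *Apoe*, an apolipoprotein of many cell types, changed by -0.33 and was not called.

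Most genes of the uptake machinery of the visceral endoderm brush border rose too. Of 12 endocytic receptors and adaptors 8 rose and 2 fell, with a median of 1.53. *Lrp2*, megalin, the large endocytic receptor, read 2.36, 2.14 and 2.81 without Dex and 5.89, 5.62 and 5.81 with Dex, and rose by 3.34 (SE 0.29, adjusted p = 2.7e-06). Its partners *Cubn* (cubilin) and *Amn* (amnionless) rose by 1.82 and 1.53. *Dab2*, the adaptor that carries these receptors into the cell and whose promoter is shown above, read 2.94, 3.17 and 3.02 without Dex and 5.52, 5.65 and 5.59 with Dex and rose by 2.55 (SE 0.08, adjusted p = 1.4e-09). The endosomal chloride transporter *Clcn5* rose by 2.99. *Tfrc*, the transferrin receptor, fell by 1.52, as did its ligand *Trf*, and the scaffold *Pdzk1* fell by 1.22. With slide as a block the change of *Pdzk1* was -0.96 and no longer called.

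Lysosomal genes rose as well. Of 20 genes 11 rose and none fell, with a median of 1.26. *Ctsh*, cathepsin H, a protease, read 2.94, 2.90 and 2.79 without Dex and 6.64, 6.53 and 6.40 with Dex and rose 12.6-fold (log2 change 3.65, SE 0.11, adjusted p = 9.6e-10). *Lgmn*, legumain, rose by 2.41, *Ctsz* by 2.15 and *Gaa*, the enzyme that degrades glycogen in lysosomes, by 1.89. *Glb1*, a galactosidase, changed by -0.55 and was not called.

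Genes of the secretory pathway showed a similar count. Of 21 genes for folding and export from the endoplasmic reticulum 11 rose and none fell, with a median of 1.16. *Sec24d*, a coat protein of the vesicles that leave the endoplasmic reticulum, rose by 2.39 (SE 0.10, adjusted p = 1e-08), and *Creb3l2*, a transcription factor that raises such coat genes, by 2.19. The chaperones *Calr*, *Hspa5* and *Hsp90b1* rose by 1.72, 1.38 and 1.47, and the disulphide isomerase *Pdia3* by 1.86. *Ddit3*, a factor induced under stress of this compartment, changed by -0.18 (SE 0.16, adjusted p = 0.33).

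**Figure D2:**
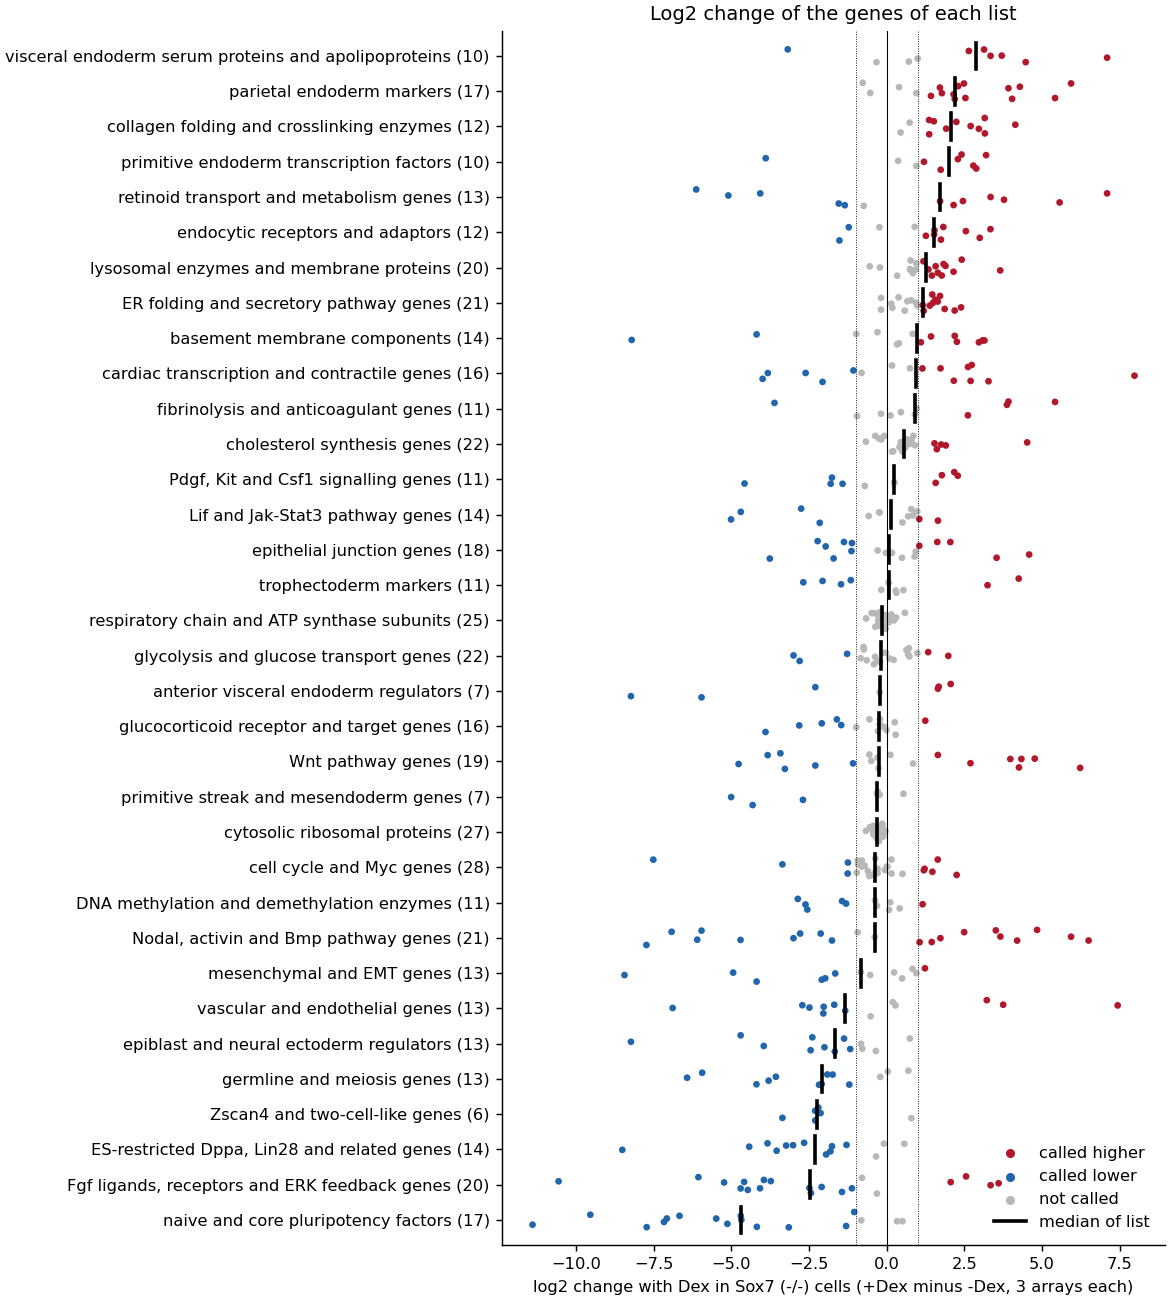
Log2 change with Dex in *Sox7*-/- cells of each measured gene in 34 lists, ordered by the list median (black bar), with the number of measured genes in parentheses and dotted lines at a 2-fold change. Red points were called higher, blue lower and grey not called. The lists of visceral endoderm serum proteins and of parietal endoderm markers lie at the top with medians of 2.89 and 2.19. The former leaves out 7 of 17 genes that were not measured. Endocytic genes have a median of 1.53 and anterior visceral endoderm regulators of -0.23. Pluripotency factors lie at the bottom with -4.70, and ribosomal and respiratory genes form narrow clusters near 0.

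Of 7 regulators of the anterior visceral endoderm, the signalling centre of the egg cylinder, 3 rose and 3 fell. *Hhex*, a homeobox repressor, read 0.65, 0.74 and 0.66 without Dex and 2.68, 2.86 and 2.69 with Dex and rose by 2.06 (SE 0.13, adjusted p = 2.8e-07). *Dkk1*, a secreted Wnt antagonist, rose by 1.65 and *Amot*, a scaffold of tight junctions, by 1.67. *Lefty1*, a *Nodal* antagonist, read 2.58, 2.50 and 2.37 without Dex and -3.48, -2.92 and -4.03 with Dex, where 1 of 3 arrays was well above background, and fell by 5.96 (adjusted p = 2.2e-08). The brightest probe of *Otx2*, a homeobox factor shared with the epiblast, fell by 8.23, but a second probe changed by -0.65, so the size of its fall is uncertain. *Cer1*, another antagonist of *Nodal*, was not measured.

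Several of the genes with the largest rises encode secreted or surface molecules. *Cfc1*, an EGF-CFC coreceptor for *Nodal*, showed the largest rise among genes well above background on all 6 *Sox7*-/- arrays, from -0.42, -0.24 and -0.43 without Dex to 6.10, 6.19 and 6.10 with Dex. This was a 90.1-fold rise (log2 change 6.49, SE 0.08, adjusted p = 1.3e-11). *Sp8*, a zinc finger factor, rose 86.4-fold, from -2.30, -1.76 and -1.94 to 4.42, 4.45 and 4.42. *Ihh*, the hedgehog ligand made by visceral endoderm, read 0.24, 0.21 and 0.06 without Dex and 6.34, 6.39 and 6.32 with Dex and rose 72.6-fold (log2 change 6.18, SE 0.10). The treated arrays of each of these genes lay more than 5 units above the untreated ones. *Cited1*, a transcriptional coactivator, rose 63.9-fold and *Pdpn*, podoplanin, a surface mucin, 59.7-fold.

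Other genes were gained from background. *Cck*, the peptide hormone cholecystokinin, read -4.36, -5.64 and -4.28 without Dex, not well above background on any array, and 4.36, 3.95 and 4.10 with Dex, a rise of at least 195-fold (adjusted p = 2.5e-09). *Zg16*, a lectin of secretory granules, rose at least 121-fold and *Fxyd3*, a regulator of the sodium pump, at least 72.1-fold. *Ugt2b34*, a glucuronosyltransferase of a family of near-identical genes, rose at least 76.5-fold, and its probe may read relatives too. With *Ttr* these are the 5 genes with the largest gains from background.

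Genes that restrain clotting and dissolve fibrin also changed. Of 11 measured genes 4 rose and 1 fell. Besides *Thbd* and *Plat*, the receptor of protein C *Procr* rose by 2.61 and *F3*, tissue factor, which starts clotting, rose from 2.69, 2.70 and 2.66 to 6.53, 6.54 and 6.58 (log2 change 3.87, SE 0.32, adjusted p = 2.1e-06). The probes of *F10*, coagulation factor X, gave 0.46 and 7.93, so its change is uncertain.

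Genes for retinoid handling moved in both directions. Of 13 genes 7 rose and 5 fell. *Cyp26a1*, which degrades retinoic acid, read -0.10, -0.07 and -0.21 without Dex and 5.54, 5.37 and 5.40 with Dex and rose 47.2-fold (log2 change 5.56, SE 0.21, adjusted p = 5.1e-09). *Dhrs3*, which turns retinal back to retinol, rose by 3.77 and the retinol uptake receptor *Stra6* by 2.15. *Aldh1a2*, which makes retinoic acid, was not well above background on any treated array and fell at least 8.27-fold, whereas the related enzyme *Aldh1a1* rose by 2.45 (SE 0.52). The receptor *Rarg* read 4.65, 4.89 and 4.71 without Dex and -1.27, -1.42 and -1.46 with Dex and fell by 6.13, and the receptor *Rarb* rose by 1.72.

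Genes of the pluripotent state fell with Dex. Of 17 naive and core pluripotency factors 14 fell and none rose, with a median change of -4.70. *Nanog*, a homeobox factor of naive cells, read 6.69, 6.67 and 6.62 without Dex and -3.93, -6.08 and -4.20 with Dex, where it was not well above background on any array. It fell at least 1350.5-fold (adjusted p = 2.4e-08), the largest loss to background of all genes. A second *Nanog* probe changed by -9.01 and the remaining one by 0.69, so it did not follow the others. *Sox2*, the partner of *Pou5f1*, went from 3.67, 3.54 and 3.63 to -5.70, -6.0 and -6.07 and fell at least 164-fold. *Pou5f1* itself, also known as Oct3/4, read 5.14, 4.03 and 4.02 without Dex and 2.15, 1.01 and 0.57 with Dex. Its arrays were more spread than those of most genes, and it fell by 3.15 (SE 0.49, adjusted p = 0.00022), remaining well above background on all 3 treated arrays.

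Other factors of the naive state fell as well. *Klf2*, a Krüppel-like factor, read 6.0, 6.02 and 5.98 without Dex and -2.12, -1.49 and -1.55 with Dex, a 211-fold fall (adjusted p = 7.4e-10). The orphan receptor *Nr0b1* fell 144-fold and *Esrrb*, another, 44.8-fold. *Prdm14*, which restrains Fgf signalling and DNA methylation in ES cells, fell at least 56.3-fold, and *Zfp42* (Rex1) fell by 4.18. The 3 exceptions were *Klf4* and *Klf5*, further Krüppel-like factors, and *Sall4*, a zinc finger factor. They changed by 0.50, -0.82 and 0.33 and none reached 2-fold.

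Among ES-restricted genes 11 of 14 fell and none rose. *Spp1*, osteopontin, was lost at least 158-fold, and *Gdf3*, a ligand of the *Nodal* family, fell by 4.43 (a second probe by 8.53). *Lin28b*, which blocks let-7 maturation, fell by 3.54, while its relative *Lin28a* changed by 0.57 and was not called. *Dppa2* and *Dppa4*, DNA-binding partners, fell by 3.01 and 1.95, and *Dppa5a* changed by -0.09.

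Most measured genes of groups found in small fractions of ES cell cultures fell as well. Of 6 measured genes of the 2-cell-like state 5 fell, but 7 listed genes were not measured. *Zscan4c* and *Zscan4f*, near-identical zinc finger genes whose probes may read one another, fell by 2.30 and 2.30, and *Zscan4f* read -0.19, 0.24 and -0.30 without Dex and -2.41, -2.32 and -2.43 with Dex. Of 13 germline and meiosis genes 10 fell and none rose. *Stra8*, which marks entry into meiosis, read 2.75, 2.67 and 2.61 without Dex and -2.92, -3.33 and -3.53 with Dex and fell by 5.94. *Tex14*, which keeps germ cell bridges open, was lost at least 31.9-fold and *Dazl*, an RNA-binding germ cell factor, at least 4.07-fold.

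Of 11 genes of DNA methylation 5 fell and 1 rose. *Tet1* and *Tet2*, which oxidise 5-methylcytosine, fell by 2.61 and 2.86, whereas *Tet3* changed by 0.08. *Dnmt3l*, the cofactor of the de novo methyltransferases, read 6.19, 6.32 and 6.20 without Dex and 3.73, 3.71 and 3.61 with Dex and fell by 2.56 (SE 0.07, adjusted p = 5.3e-10). *Dnmt3b* fell by 1.44 and *Dnmt3a* changed by -0.38.

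**Figure D3:**
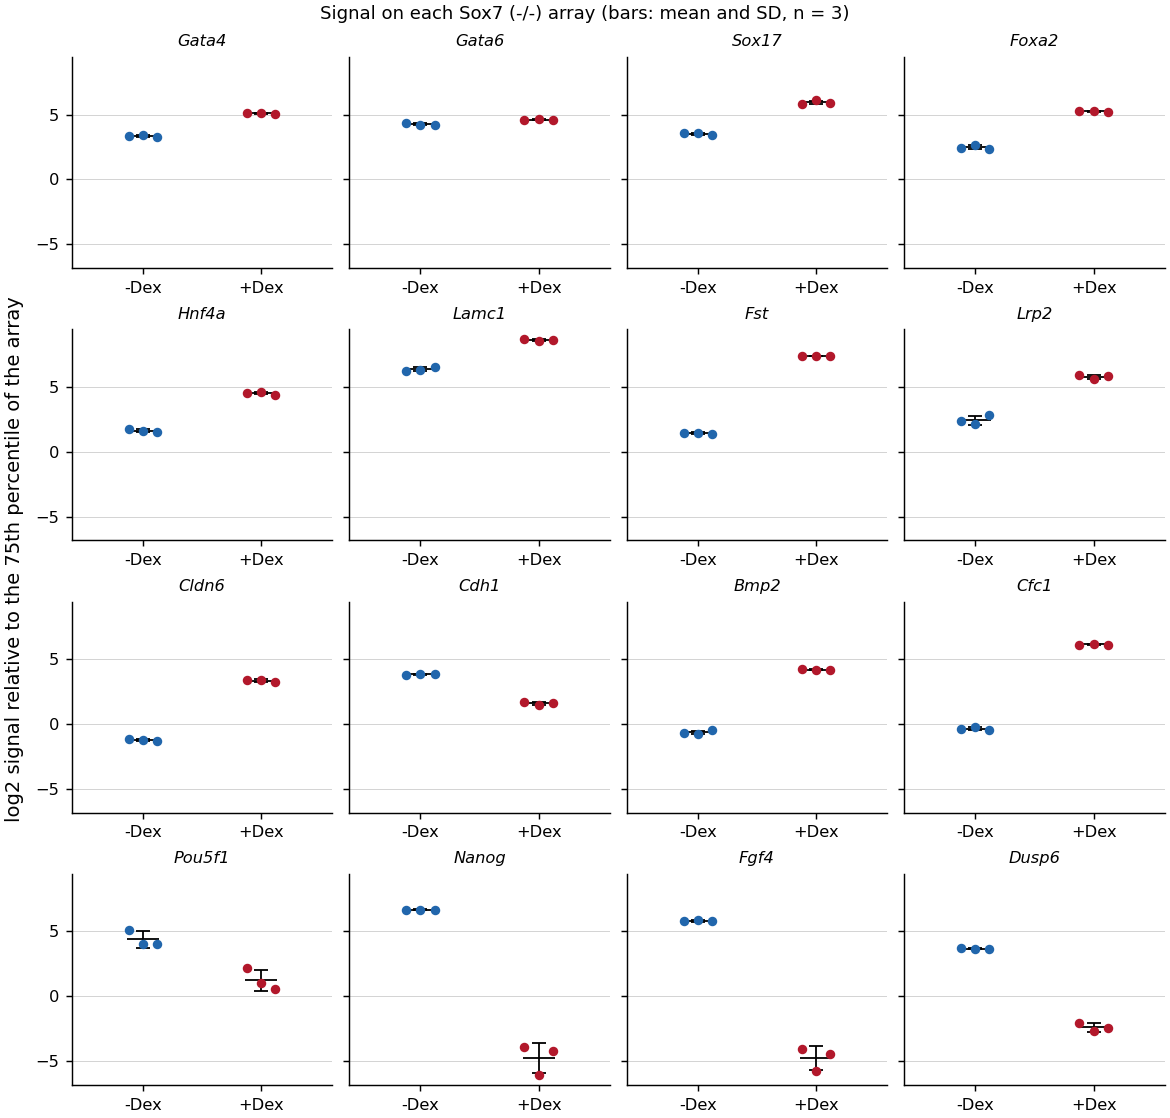
Log2 signal, scaled by each array's 75th percentile, of 16 genes on each *Sox7*-/- array, without Dex (blue) and with Dex (red), with bars for the mean and SD of 3 arrays. *Gata6* values lie close together, *Cfc1* and *Fst* rise by about 6 units, and the treated values of *Nanog* and *Fgf4* lie near the floor of the arrays and are spread widely there.

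Fgf signalling genes fell widely. Of 20 genes 14 fell and 4 rose, with a median of -2.46. *Fgf4*, the ligand that ES cells secrete, read 5.79, 5.86 and 5.77 without Dex and -4.08, -5.76 and -4.41 with Dex, and was lost at least 749-fold (adjusted p = 7.6e-09). *Fgf5* was lost at least 5.56-fold and *Fgf15* at least 4.11-fold, whereas the ligands *Fgf10* and *Fgf3* rose by 2.55 and 2.06. Among the receptors, *Fgfr1* read 3.41, 3.58 and 3.46 without Dex and 1.10, 0.87 and 1.02 with Dex and fell by 2.49 (SE 0.09, adjusted p = 3.6e-09), though another of its probes changed by -0.08. *Fgfr3* read 0.71, 0.79 and 0.71 without Dex and 4.38, 4.32 and 4.31 with Dex and rose by 3.60 (SE 0.06, adjusted p = 3.7e-11), and *Fgfr4* rose by 3.34. *Fgfr2* changed by -0.80, and was not called.

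Several genes that ERK activity is known to induce fell. *Dusp6*, the phosphatase of ERK, read 3.70, 3.68 and 3.65 without Dex and -2.02, -2.70 and -2.44 with Dex and fell by 6.06 (SE 0.52, adjusted p = 2.8e-06). The ETS factors *Etv5* and *Etv4* fell by 5.23 and 4.47, and the feedback inhibitors *Spry1*, *Spry2* and *Spry4* also fell, *Spry1* by 3.95, *Spry2* by 2.44 and *Spry4* at least 6.2-fold. *Dusp4*, a nuclear phosphatase, fell by 4.59. *Egr1*, an immediate early gene, fell by 1.12 (SE 0.18, adjusted p = 0.00024), the least among the called members.

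In the *Nodal*, activin and Bmp pathways members fell and rose in like numbers. Of 21 genes 10 rose and 9 fell. *Nodal*, the ligand, read 2.60, 2.60 and 2.64 without Dex and -2.45, -1.96 and -1.87 with Dex and fell by 4.70 (SE 0.14, adjusted p = 1.1e-09). Its antagonist and target *Lefty2* fell by 6.10, and the activin subunit *Inhbb*, not well above background on any treated array, at least 61.5-fold. The treated arrays lay below all untreated ones for each of these genes. The coreceptor of *Nodal*, *Tdgf1*, fell by 1.76 by the brightest probe, whereas other probes changed by -7.36 and -8.77, while the related coreceptor *Cfc1* rose.

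The Bmp ligands moved in opposite directions. *Bmp4* read 5.33, 5.36 and 5.31 without Dex and -1.30, -1.74 and -1.73 with Dex and fell 121-fold (log2 change -6.92, SE 0.43, adjusted p = 2.1e-07). *Bmp2*, a closely related ligand, read -0.71, -0.75 and -0.49 without Dex and 4.23, 4.16 and 4.17 with Dex and rose 28.6-fold (log2 change 4.84, SE 0.08, adjusted p = 3.7e-11). *Bmp7* fell by 2.79. The Bmp target genes *Id1*, *Id2* and *Id3* rose by 1.73, 4.20 and 1.45. *Smad6*, an inhibitor that Bmp signalling induces, rose by 3.66, whereas *Smad7*, a related inhibitor, fell by 2.13.

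Wnt pathway genes also divided, with 7 of 19 higher and 6 lower. The secreted antagonist *Sfrp5* read -0.55, -0.49 and -0.80 without Dex and 5.72, 5.61 and 5.49 with Dex and rose 74.7-fold (log2 change 6.22, SE 0.12, adjusted p = 5.3e-11). *Frzb*, of the same family, rose at least 4.95-fold, while a further relative, *Sfrp1*, fell by 3.42. *Rspo3*, which enhances Wnt signals, rose by 4.76 and the ligand *Wnt11* by 4.33. The ligand *Wnt6* fell by 3.83. *Lef1*, a nuclear effector and target, read 0.96, 1.18 and 1.08 without Dex and -3.50, -4.52 and -3.06 with Dex, where 1 of 3 arrays was well above background, and fell by 4.77 (SE 0.37). The feedback gene *Nkd1* fell by 3.28.

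**Figure D4:**
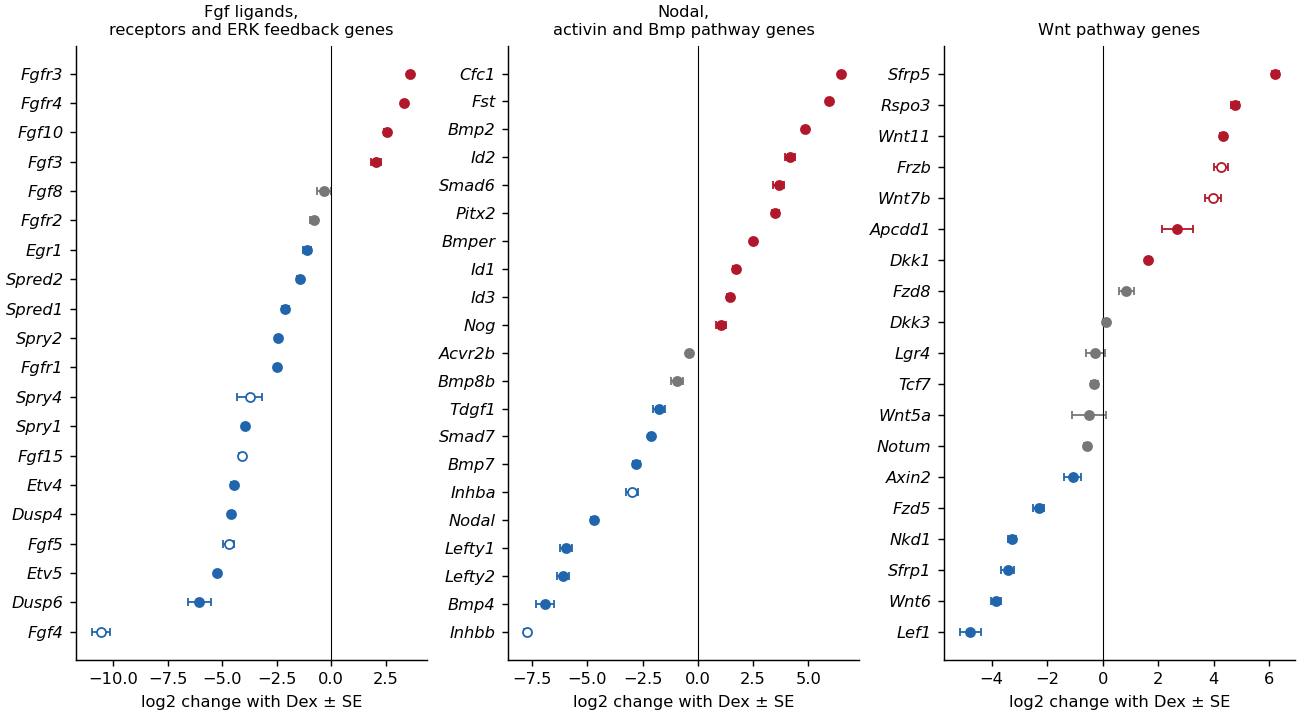
Log2 change with Dex ± SE from limma in *Sox7*-/- cells for each measured gene of the Fgf, *Nodal* and Bmp, and Wnt lists, 3 arrays against 3. Red marks genes called higher, blue lower and grey not called, and open circles mark genes not well above background on any array of a group, whose fitted change is not a bound. *Fgfr3* and *Fgfr4* stand opposite *Fgfr1*, and *Bmp2* opposite *Bmp4*.

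LIF was present with and without Dex. Of 14 genes of its pathway 2 rose and 4 fell, with a median of 0.14. This is 14.3% and 28.6%, against 15.2% and 14.5% of all genes. The targets *Gbx2*, *Tfcp2l1*, *Pim1* and *Socs2* fell, *Gbx2* at least 28.3-fold and *Tfcp2l1*, also counted among the naive factors, by 4.70. *Socs3*, the usual feedback target of *Stat3*, read 2.81, 2.77 and 2.84 without Dex and 2.60, 2.55 and 2.60 with Dex, a change of -0.23 (adjusted p = 0.27), and *Stat3* changed by 0.69. The kinase *Jak2* rose by 1.65. *Junb* rose by 1.05 (SE 0.18), but by 0.98 without *Sox7*-/- replicate 1 with Dex, where it was no longer called.

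Receptor kinases of primitive endoderm and their ligands moved in different directions, with 4 of 11 measured genes higher and 4 lower. *Pdgfra*, the receptor that marks this lineage, read 3.25, 3.25 and 3.30 without Dex and 5.09, 5.01 and 5.03 with Dex and rose by 1.77 (SE 0.06, adjusted p = 2.3e-09), whereas its ligands *Pdgfa* and *Pdgfc* fell by 1.80 and at least 19.3-fold. *Kit*, the stem cell factor receptor, rose by 2.17. Its ligand *Kitl*, not well above background without Dex, read -5.74, -4.21 and -4.24 and then -2.39, -2.46 and -2.48, a rise of at least 2.03-fold (adjusted p = 0.0063) and a call lost with slide as a block. *Pdgfrb*, the other receptor of this family, was called lower (adjusted p = 0.0025, at least 1.88-fold), a call lost when slide was a block.

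Epithelial junction genes went both ways, 5 of 18 higher and 7 lower. The claudins divided, with *Cldn6* rising from -1.17, -1.23 and -1.34 to 3.41, 3.37 and 3.22 (log2 change 4.58, SE 0.20, adjusted p = 1.4e-08), *Cldn7* rising by 3.53, and *Cldn3* falling by 1.96. *Cldn6* and *Cldn7* form tight junctions, as does *Marveld2*, tricellulin, which rose by 2.05. *Cdh1*, E-cadherin, read 3.79, 3.82 and 3.86 without Dex and 1.72, 1.47 and 1.61 with Dex and fell by 2.22 (SE 0.16, adjusted p = 6.5e-07). The adhesion molecule *Epcam* fell by 1.71, and *Rab25*, a GTPase of epithelial trafficking, at least 3.93-fold. *Dsp*, desmoplakin of the desmosome, rose by 1.63.

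Of the mesenchymal genes 1 of 13 rose and 6 fell. The gene that rose was *Twist1*, a basic helix-loop-helix factor, by 1.23. *Tgfbi*, a matrix protein induced by transforming growth factor beta, read 3.17, 3.13 and 3.09 without Dex and -5.43, -5.06 and -5.43 with Dex and was lost at least 117-fold. *Mmp2*, a gelatinase, was lost at least 8.17-fold, and the repressors *Snai2* and *Zeb1* fell at least 2.67-fold and by 1.66. *Cdh2*, N-cadherin, changed by -0.83 (SE 0.24, adjusted p = 0.011).

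The Dex response of *Sox7*-/- cells was then compared with that of *Sox7*+/- cells. Over all genes the response was called higher in *Sox7*-/- cells for 6.72% and lower for 3.29% (limma, interaction of Dex and genotype), and over all probes it differed for 9.79%. It was higher for 12 of 18 epithelial junction genes and lower for none. The same test gave higher responses for 8 of 12 endocytic genes and 8 of 11 trophectoderm markers. A higher response can be a smaller fall. In *Sox7*+/- cells 11 junction genes and 8 trophectoderm markers fell, against 7 and 4 in *Sox7*-/- cells. *Cldn6*, which rose in *Sox7*-/- cells, changed by -0.17 in *Sox7*+/- cells, and the difference of 4.75 had an adjusted p of 1.8e-06. For the mesenchymal list the response was lower in 7 of 13 genes, among them *Zeb1*, which rose by 1.83 in *Sox7*+/- cells (difference -3.49, adjusted p = 7.5e-06), and *Cdh2* (difference -2.63). *Cubn* and *Amn* rose in *Sox7*-/- cells and fell in *Sox7*+/- cells, by 1.85 and 2.08 on the log2 scale, with differences of 3.67 and 3.61. For *Apom*, which fell by 2.65 in *Sox7*+/- cells, the difference was 6.35 (adjusted p = 1.4e-07). The smaller fall of *Zscan4c* and *Zscan4f* in *Sox7*-/- cells gave fitted differences of 6.10 and 5.80. These are no bounds, since *Zscan4c* was not well above background on any treated *Sox7*+/- array. The response was called different for 1 of 12 collagen enzymes and for 4 of 17 pluripotency factors, 2 higher and 2 lower. For the pluripotency factors this share is above that of all genes. Since the *Sox7*-/- and *Sox7*+/- arrays without Dex lay on different slides, the difference rests in part on comparing slides.

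**Figure D5:**
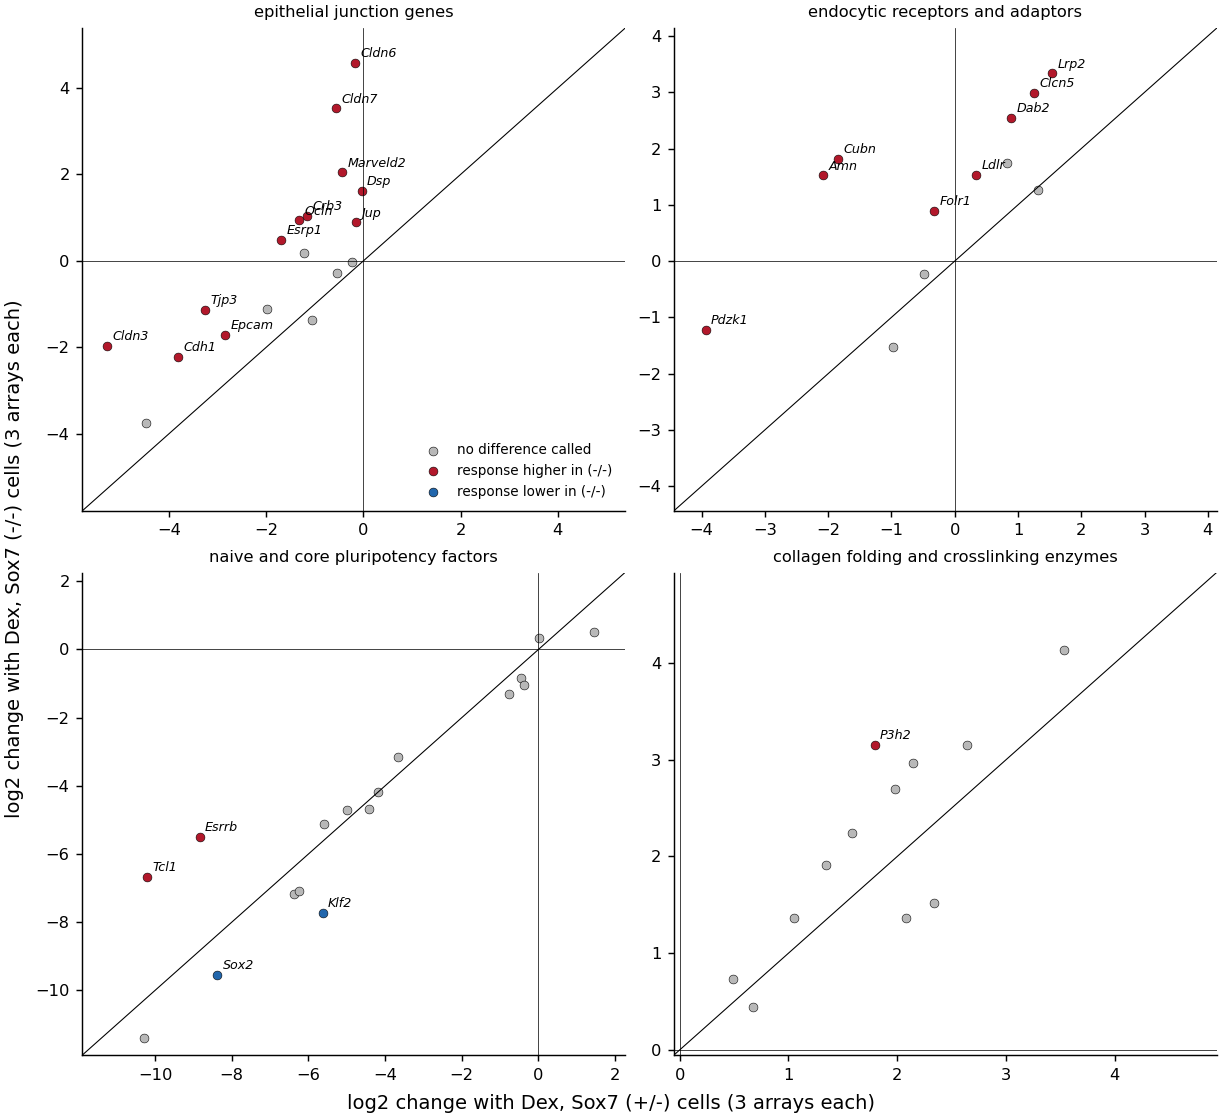
Log2 change with Dex in *Sox7*+/- cells (x axis) and *Sox7*-/- cells (y axis), 3 arrays per group, for the measured genes of 4 lists, with the line of equal change. Red points had a response called higher in *Sox7*-/- cells and blue points lower, and both kinds are named. Most epithelial junction and endocytic genes lie above the line, whereas most pluripotency and collagen genes lie near it.

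Known targets of the glucocorticoid receptor were read as a list too. Of 16 genes 1 rose and 5 fell, with a median of -0.25. This is 6.25% and 31.25%, against 15.2% and 14.5% of all genes. *Tsc22d3* (Gilz), a classical target, read 0.18, 0.54 and 0.34 without Dex and 0.48, 0.80 and 0.55 with Dex, and changed by 0.26 (SE 0.47, adjusted p = 0.65). *Per1*, a clock gene that glucocorticoids induce, changed by 0.29 (SE 0.07), short of 2-fold. *Fkbp5*, the chaperone that limits receptor activity, read 3.37, 3.52 and 3.44 without Dex and 1.28, 1.45 and 1.33 with Dex and fell by 2.09 (SE 0.13, adjusted p = 2.6e-07). *Pdk4* fell by 3.90 and the metallothionein *Mt2* by 2.81. *Zbtb16*, a zinc finger factor, rose by 1.24 (adjusted p = 0.0058), a call lost with slide as a block.

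Markers of other cell types were examined for what else the cultures could hold. Of 24 cardiac genes 16 were measured, 8 rose and 5 fell. This is 50% and 31.25% of those measured, against 15.2% and 14.5% of all genes. The log2 summed signal of the measured genes was 2.68 to 2.83 without Dex and 5.09 to 5.15 with Dex. The probe of *Myl3* alone gave most of the sum with Dex, which can also reflect the brightness of that probe. *Myl3*, a myosin light chain of heart and slow muscle, read -2.89, -3.16 and -3.41 without Dex, where 2 of 3 arrays were well above background, and 4.85, 4.81 and 4.80 with Dex and rose 251-fold (log2 change 7.97, SE 0.39, adjusted p = 3.9e-08). *Isl1*, a progenitor factor, rose at least 2.4-fold and *Nppb*, a natriuretic peptide, by 2.70. The contractile genes *Myl4*, *Ttn* and *Myh6* and the factor *Hand1* were among those that fell. The defining factors *Tbx5*, *Tbx20*, *Hand2* and *Mef2c* and the troponin *Tnnt2* were not measured, and *Nkx2-5* read -3.16, -3.31 and -3.42 without Dex and -2.72, -2.38 and -2.55 with Dex, a change of 0.75 (adjusted p = 0.054) against 4.50 in *Sox7*+/- cells.

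Of 20 vascular and endothelial genes 13 were measured, 3 rose and 7 fell. This is 23.1% and 53.8% of those measured, against 15.2% and 14.5% of all genes. The summed signal was 4.57 to 4.65 without Dex and 4.75 to 4.79 with Dex. The adhesion molecule *Vcam1* read -5.41, -5.63 and -5.63 without Dex and 1.89, 1.90 and 1.83 with Dex and rose at least 40.5-fold, the receptor kinase *Tek* rose by 3.75 and the Vegf receptor *Flt1* by 3.22. The endothelial cadherin *Cdh5* and *Pecam1* fell by 2.49 and 2.04, and *Robo4* was lost at least 31.3-fold. The endothelial factors *Erg*, *Fli1* and *Tal1* were not measured.

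Of 13 trophectoderm markers 11 were measured, 2 rose and 4 fell. This is 18.2% and 36.4% of those measured, and the share that rose is near the 15.2% of all genes, whereas 14.5% of all genes fell. Their summed signal was 3.21 to 3.24 without Dex and 3.29 to 3.35 with Dex. *Gata3* and *Gata2* rose by 4.25 and 3.24, but the defining factors *Cdx2* and *Eomes* changed by 0.31 and 0.54 and were not called, and *Elf5* was not measured. The primitive streak list had a summed signal of 2.64 to 2.66 without Dex and 1.19 to 1.32 with Dex. Of its 7 measured genes 3 fell and none rose, and *T* and *Mixl1* were not measured. Among epiblast and neural regulators 9 of 13 fell and none rose, and the summed signal was 5.96 to 6.07 without Dex and 3.96 to 4.04 with Dex. *Sox11* was lost at least 8.31-fold, and *Sox1* changed by 0.74. In bulk samples fewer cells of a type and less RNA per cell cannot be told apart, and the part of cells of other types in these changes was not tested.

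Housekeeping and metabolic genes differed by list. None of 25 respiratory chain and ATP synthase genes and none of 27 ribosomal protein genes was called at 2-fold, with medians of -0.14 and -0.32. Of 22 glycolysis and glucose transport genes 2 rose and 3 fell, which is 9.1% and 13.6%, against 15.2% and 14.5% of all genes. *Pfkp*, the platelet form of phosphofructokinase, fell by 3.0, although a second probe changed by -0.44, while the muscle form *Pfkm* rose by 1.33, and *Ldhb*, a lactate dehydrogenase subunit, fell by 2.80 while *Ldha* changed by 0.22. Cholesterol synthesis genes gave 5 rises of 22 (22.7%) and no fall. *Insig1*, which holds back the sterol sensor, read -1.25, -0.91 and -1.13 without Dex and 3.42, 3.36 and 3.50 with Dex and rose 22.9-fold (log2 change 4.52, SE 0.24, adjusted p = 7.8e-08), and *Srebf2*, the factor it restrains, rose by 1.61.

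Of 28 cell cycle genes 5 rose and 4 fell, which is 17.9% and 14.3% and near the 15.2% and 14.5% of all genes. *Ccnd1*, cyclin D1, read 1.94, 1.93 and 1.89 without Dex and -4.48, -6.11 and -6.17 with Dex and was lost at least 50.6-fold (adjusted p = 5.3e-08), whereas *Ccnd2* rose by 1.47. The inhibitors *Cdkn1a* (p21) and *Cdkn2a* rose by 1.64 and 2.25. *Myc* read 0.70, 0.72 and 0.67 without Dex and -2.61, -2.73 and -2.65 with Dex and fell 10.3-fold, and its difference from the change of -0.71 in *Sox7*+/- cells was -2.65 (adjusted p = 6e-07). The proliferation markers *Mki67* and *Top2a* changed by 0.51 and -0.30.

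The largest falls outside these lists were in genes of varied function. *Trh*, the precursor of thyrotropin-releasing hormone, read 6.57, 6.59 and 6.36 without Dex and -1.76, -1.97 and -1.83 with Dex, a 328-fold fall (log2 change -8.36, SE 0.16, adjusted p = 5.3e-11) and the largest among genes well above background on all 6 *Sox7*-/- arrays. *Ifitm1*, an interferon-induced membrane protein from a cluster of similar genes, fell 143-fold, *Gng2*, a G protein subunit, 133-fold and *Slc7a3*, a transporter of cationic amino acids, 121-fold. Losses to background were led, after *Nanog* and *Fgf4*, by the junction molecule *Jam2* (at least 323-fold), the surface protein *Ly6a* (Sca-1, at least 247-fold) and the microtubule regulator *Stmn2* (at least 221-fold).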

How the data were processed

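Labelled RNA of 12 samples was hybridised to 1-colour Agilent mouse arrays, 1 array per sample and 3 per group, and the authors scanned them with Agilent Feature Extraction 10.7.3.1, which subtracted background and detrended each array. The deposited intensity of each spot (processed signal) was divided by the 75th percentile of its array and taken as log2. Control spots and spots marked as outliers were left out, and spots of a probe were averaged. The test took in every probe that passed the well-above-background mark on each array of some group. A model with 1 mean per group was fitted to all 12 arrays with limma 3.58.1 in R 4.3.3, so that all groups share 1 estimate of spread. Calls needed more than a 2-fold change and an adjusted p (Benjamini-Hochberg) under 0.05. The brightest probe over the 12 arrays stood for a gene. Of 55681 probes 27656 were named by accession through RefSeq, 3401 by symbol and 321 by synonym, and 24303 kept the name in the file, and probe positions are on mm9. A second deposited table of intensities followed the mean spot signal within 0.498%. It served as an alternative and was taken as log2 without scaling between arrays or subtracting background. Named genes were, besides 8 lineage genes, the 8 largest rises and falls on all 6 arrays, the 5 largest gains from and losses to background, up to 4 called genes per list and direction, and up to 3 with the largest difference between genotypes. The groups, gene lists and comparisons were chosen with earlier results of these data known. The number of arrays limits the precision. The test was tried on simulated data. Some listed genes are not reported here.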

Additional observations from a re-analysis of the deposited data

Results flagged for a closer look

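The Dex response differed between the genotypes by a test of the difference itself (limma, interaction of Dex and genotype) for 1718 probes with a higher and 822 with a lower response in *Sox7*-/- than in *Sox7*+/- cells, of 25940 tested. The named genes below were those listed genes with the largest differences in each direction. *Apom*, the lipocalin of lipoproteins, had a difference of 6.35 on the log2 scale, with rises in *Sox7*-/- cells and falls in *Sox7*+/- cells. The 2-cell-like genes *Zscan4c* and *Zscan4f* had differences of 6.10 and 5.80, and without Dex their mean signals were -0.78 and -0.08 in *Sox7*-/- cells and 3.48 and 4.94 in *Sox7*+/- cells. *Nkx2-5*, a cardiac homeobox factor, had a difference of -3.75, since it changed by 0.75 in *Sox7*-/- cells and by 4.50 in *Sox7*+/- cells. *Zeb1*, a repressor of E-cadherin, had a difference of -3.49, with a fall in *Sox7*-/- cells and a rise in *Sox7*+/- cells. *Myc* fell in *Sox7*-/- cells and was not called in *Sox7*+/- cells, a difference of -2.65.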

How the results depend on the processing

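In the *Sox7*-/- cells 3780 probes rose and 3695 fell. With normexp background correction 2366 rose and 2259 fell, from the second deposited file 2430 rose, and with only probes well above background on all 12 arrays 1591 fell against 2528 that rose, so that 61.4% of calls were higher in place of 50.6%. For the difference between genotypes (1718 higher, 822 lower) normexp gave 887 and 501, and scaling by spike-in controls 3020 and 345. The filter on all 12 arrays gave 837 and 422, and no filter 1888 and 3537. The second deposited file, which was not scaled between arrays, gave 1899 and 222. Leaving out each array in turn gave 3691 to 3810 higher and 3561 to 3724 lower, and 1578 to 1814 and 708 to 890 for the difference. Scaling by the median of probes well above background moved the median change of all probes from 0.07 to -0.04. Replicate numbers did not pair the arrays, since deviations of same-numbered arrays correlated at -0.05 to 0.13, and with replicate number as a block 3793 rose and 3701 fell, and 1701 and 817 differed between genotypes. Of 223 single genes called, none changed direction under the alternatives that tested it, but the filter on all 12 arrays held only 145 of them, and the filter on *Sox7*-/- groups and the choice of 1 probe per gene held 222. Calls were lost for 17 with normexp (among them *Egr1*, *Isl1*, *Kitl*, *Nr2f2*, *Pdgfrb*, *Pdzk1*, *Snai2*, *Twist1* and *Zbtb16*), 14 with that file, 5 with slide as a block, 2 within slide 1 (1 treated array), and for *Junb* under 2 other scalings and without *Sox7*-/- replicate 1 with Dex. The cause was not tested. Signals near background limit the size of large falls.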
